A study of Mus musculus with 4 samples.

Results

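The STAT and SOCS genes described here are Stat3, Stat4, Stat5a, Stat5b, Stat6, Socs1, Socs2, Socs3 and Cish, 9 of the 21883 protein-coding genes placed on the genome. They were chosen by name, and their accessible regions are all those that overlap the gene body or the 50 kb on either side. These windows held 116 of the 77914 regions of the series. Open chromatin had been measured with ATAC-seq, which uses a transposase to tag accessible DNA, in bulk libraries of MPP3 cells, a myeloid-biased multipotent progenitor, sorted from mouse bone marrow. Of the 4 libraries, 2 carry the genotype label WTiMOS_T2 (T2 below) and 2 the label WTiMOS_T1 (T1 below); all came from WT-iMOS mice 3 months of age. The labels explain neither T1 nor T2, nor do they say which of them, if either, carries an altered Bcl11a, the transcription factor the series is about. The sample titles number 2 replicates per group, whereas the deposited lists of each group are named as parts of a single replicate, so the spread between them may be technical.

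STAT proteins are transcription factors that lie latent in the cytoplasm. A cytokine receptor activates its bound JAK kinases, and the kinases phosphorylate a STAT. The STAT dimer enters the nucleus and binds sites that often carry the letters TTCNNNGAA. The SOCS genes and Cish are among the genes that STATs induce; their proteins bind receptors or JAKs through an SH2 domain and damp the signal. In blood progenitors STAT5 acts downstream of thrombopoietin and of the receptors for IL-3 and GM-CSF, and STAT3 and SOCS3 act downstream of G-CSF and IL-6.

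Sequences at start sites are shown first because the results turn on the start-site regions of Socs3, Cish, Socs1 and the 2 STAT5 genes. They come from RefSeq on GRCm38.p6 (mm10), run 5′ to 3′ on the gene's strand from 250 bases before the start site to 30 bases after it, and carry any TTCNNNGAA in capitals. The motif reads the same on both strands, so both were searched at once. A window of 250 bases before to 50 after the start site was found for 8 of the 9 genes, all but Socs2, at 11 start sites. Of these, 2 held TTCNNNGAA, at Cish and Socs3. The motif occurred in 8.30% of the 32851 windows of this length in the table. Cish held it 2 times, as did 0.457% of windows (at least 2 times), directly behind the start site at bases 1 to 9 and 12 to 20. Socs3 held it at −154 to −146. A match describes letters only and is not evidence that a STAT binds there.
Cish, chr9:107296409-107296688, plus strand: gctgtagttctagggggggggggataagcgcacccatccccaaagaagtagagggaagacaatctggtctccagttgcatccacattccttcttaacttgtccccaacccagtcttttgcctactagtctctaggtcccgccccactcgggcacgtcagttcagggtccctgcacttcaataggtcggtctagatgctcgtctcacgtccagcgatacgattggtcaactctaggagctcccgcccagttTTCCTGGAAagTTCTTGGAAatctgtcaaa
Socs3, chr11:117969337-117969616, minus strand: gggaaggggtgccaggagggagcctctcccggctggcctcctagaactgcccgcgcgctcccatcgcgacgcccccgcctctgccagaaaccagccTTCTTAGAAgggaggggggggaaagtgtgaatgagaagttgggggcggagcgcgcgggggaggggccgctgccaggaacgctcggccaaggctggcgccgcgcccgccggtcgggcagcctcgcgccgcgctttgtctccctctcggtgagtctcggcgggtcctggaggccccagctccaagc
Socs1, chr16:10785507-10785786, minus strand: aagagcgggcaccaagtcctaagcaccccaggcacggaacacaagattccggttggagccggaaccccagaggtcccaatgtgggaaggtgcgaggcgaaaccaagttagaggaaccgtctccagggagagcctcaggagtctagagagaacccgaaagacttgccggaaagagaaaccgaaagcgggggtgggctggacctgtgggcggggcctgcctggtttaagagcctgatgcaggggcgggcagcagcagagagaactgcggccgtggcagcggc

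Stat5a and Stat5b, neighbouring genes with closely related products, also share letters at a pair of start sites. The longest well-matched stretch without gaps between the downstream start-site window of Stat5a and the inner one of Stat5b was 65 bases, of which 58 (89.2%) were identical; capitals mark the 7 that differ. It runs from −66 to −2 at Stat5a and from −57 to 8 at Stat5b.
Stat5a, chr11:100860418-100860482, plus strand: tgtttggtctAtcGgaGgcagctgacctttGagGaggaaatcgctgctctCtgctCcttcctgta
Stat5b, chr11:100822563-100822627, minus strand: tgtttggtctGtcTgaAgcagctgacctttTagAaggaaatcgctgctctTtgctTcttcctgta

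Each library is represented by the authors' list of accessible sites (peaks). Lists held 66776 and 62718 peaks in T2 and 58469 and 54057 in T1 (replicates 1 and 2). They carry no read counts, so sequencing depth is unknown. A peak at 1 or both gene ends was found in 9 or 10 of 10 progenitor marker genes per library, but also in 12 to 14 of 18 marker genes of T, B, erythroid, endothelial, stromal and neural cells, so peaks at gene ends do not tell these cell types apart. A weaker peak in bulk cells cannot be told apart from a site that is open in fewer of them.

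A region is the union of peaks that share 1 bp or more in any of the lists. A T2-only region has a peak in both T2 libraries and neither T1 library, and a T1-only region the reverse. Most regions near the STAT and SOCS genes were shared: 72 of 116 (62.1%) had a peak in all 4 libraries, against 56.8% of all regions. T2-only regions numbered 5 (4.31%), against 6.88% of all regions, and 1 region (0.862%) was T1-only, against 2.33%. Another 38 had other combinations, and the most frequent, with 12 regions, lacked a peak only in T1 replicate 2, the shortest list. Peaks were present in 104 and 99 of the 116 regions in T2 and in 95 and 83 in T1. Both group-only shares lay below those of all regions, but this depended on the peaks and libraries used. When every peak had to reach −log10 q 10, T2-only regions numbered 11 of 92, a larger share than the 8.08% over all regions. They numbered 17 of 113 (15.0%) without T1 replicate 1, against 13.1% of all regions, and 14 (12.4%) without T2 replicate 2, against 15.7%. Without T2 replicate 1 they numbered 9 (8.33%, against 12.5% of all regions) and without T1 replicate 2 they numbered 8 (6.96%, against 9.67%). T1-only regions numbered 4 without T2 replicate 2, a share of 3.54%, against 3.44% of all regions. They numbered 4 without T2 replicate 1 (3.70%, against 4.70%), 2 without T1 replicate 1 (1.77%, against 4.51%) and 4 without T1 replicate 2 (3.48%, against 6.14%).

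**Figure D1:**
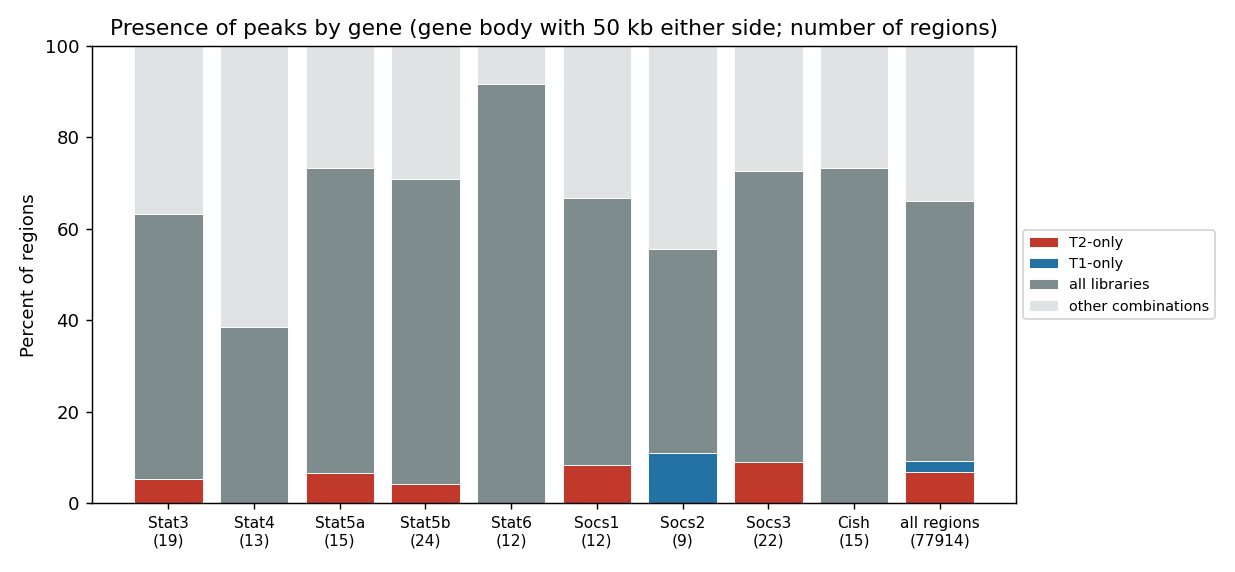
Percent of regions (y axis) by presence of peaks, for each gene with 50 kb on either side and for all regions of the series, with the number of regions in brackets; colours give T2-only, T1-only, all libraries and other combinations. T2-only regions appear at Stat3, Stat5a, Stat5b, Socs1 and Socs3, and the T1-only region at Socs2; regions shared by the overlapping Stat3, Stat5a and Stat5b windows are counted at each of these genes.

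By gene, the windows held between 9 regions (Socs2) and 24 (Stat5b). Stat5b, Stat5a and Stat3 lie side by side on chromosome 11, so 15 regions lay in more than 1 of their windows, and together they held 33. Of the 9 genes, 3 had no group-only region: Stat4, Stat6 and Cish. Socs3, which had 22 regions around a gene of 4258 bp, held 2 of the 5 T2-only regions. Per 100 kb of window, Socs3 had 21.1 regions and the other 8 genes between 5.91 (Stat4) and 14.1 (Cish).

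Strength was compared only through ranks. In each library, the 44274 regions shared by all 4 were ranked by the −log10 q of their strongest peak. This value measures the peak's significance over local background, and percentile 100 is the strongest. Each library ranks the same regions, so list length does not enter except through which regions are shared. Groups are called apart where both T2 percentiles lie above both T1 percentiles or the reverse. Over all shared regions, 26.3% were apart with T2 higher and 26.2% with T1 higher. With 2 libraries against 2, an exact two-sided permutation test cannot give a p below 0.333, so the differences below are descriptions, set beside the spread between replicates.

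Over the 72 shared regions of the STAT and SOCS genes, 22 (30.6%) were apart with T2 higher and 23 (31.9%) with T1 higher. The median difference, T2 mean minus T1 mean, was −1.61 percentile points, against 0.02 over all shared regions. These counts shifted with the ranking and the libraries. Over whole lists, where the T2 lists are longer, 31 were apart with T2 higher and 18 with T1 higher. The median difference was then 2.15 points, against 3.15 over all shared regions. At equal list length, 22 of 68 were apart with T2 higher and 19 with T1 higher, and the median difference was −0.98 points. Without T1 replicate 1, 25 and 36 of 75 were apart, but with 1 T1 library left the condition is met more easily. Shares over all shared regions were not computed for these settings. In the main ranking, the median size of the differences without sign was 8.48 points, against 5.97 over all shared regions. The median gap between replicates of a group was 5.91 points in T2 and 4.62 points in T1. When regions were ranked by the authors' fold over background, 16 were apart with T2 higher and 23 with T1 higher, and 14 and 19 were apart in the same direction by both measures. The fold ranking put 22.4% of all shared regions apart with T2 higher and 25.8% with T1 higher. The share of all shared regions apart by both measures was not computed.

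**Figure D2:**
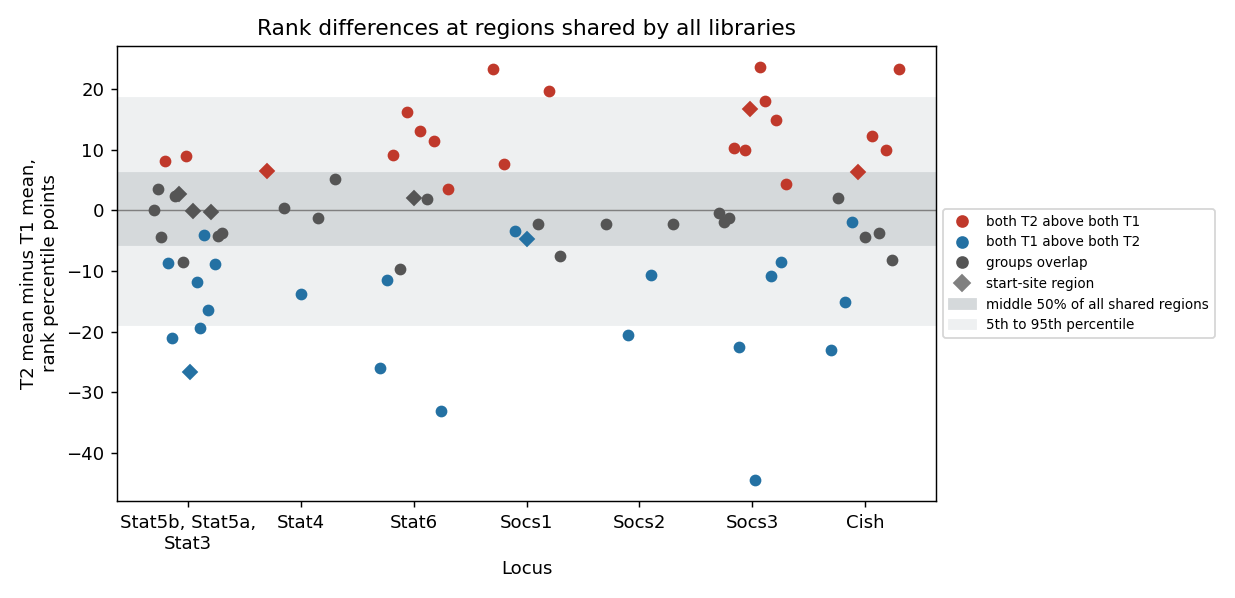
Difference in rank percentile by −log10 q, T2 mean minus T1 mean (y axis, percentile points), for the 72 shared regions by locus (x axis, regions in genome order); colour shows whether the groups were apart, diamonds are start-site regions, and grey bands hold the middle 50% and 90% of all shared regions. The lowest point, at Socs3, is −44.6, and 2 Stat6 points lie at −25.9 and −33.2.

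Start-site regions, those within 1000 bp before to 100 bp after an annotated start site of a member, numbered 9, and all had a peak in all 4 libraries. They came from 8 genes, with 2 at Stat5b and none at Socs2, for which no start site was annotated in the sources used. The upstream annotated start sites of Stat4 and Stat5a had no peak in any library. Averaged over the 4 libraries, their −log10 q had a median of 97.3, against 27.2 for the other shared regions inside the member genes. By −log10 q, 3 were apart with T2 higher (Stat4, Socs3 and Cish), 2 with T1 higher (the outer Stat5b region and Socs1), and 4 were not apart. By fold, 2 were apart with T2 higher (Stat4 and Socs3), 3 with T1 higher (Stat3, the outer Stat5b region and Socs1), and 4 were not apart. Over all shared regions, 26.3% and 26.2% were apart by −log10 q and 22.4% and 25.8% by fold. Counts among 9 regions are too small to set apart from these shares. The largest start-site difference in the T2 direction was at Socs3 and the largest in the T1 direction at Stat5b.

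**Figure D3:**
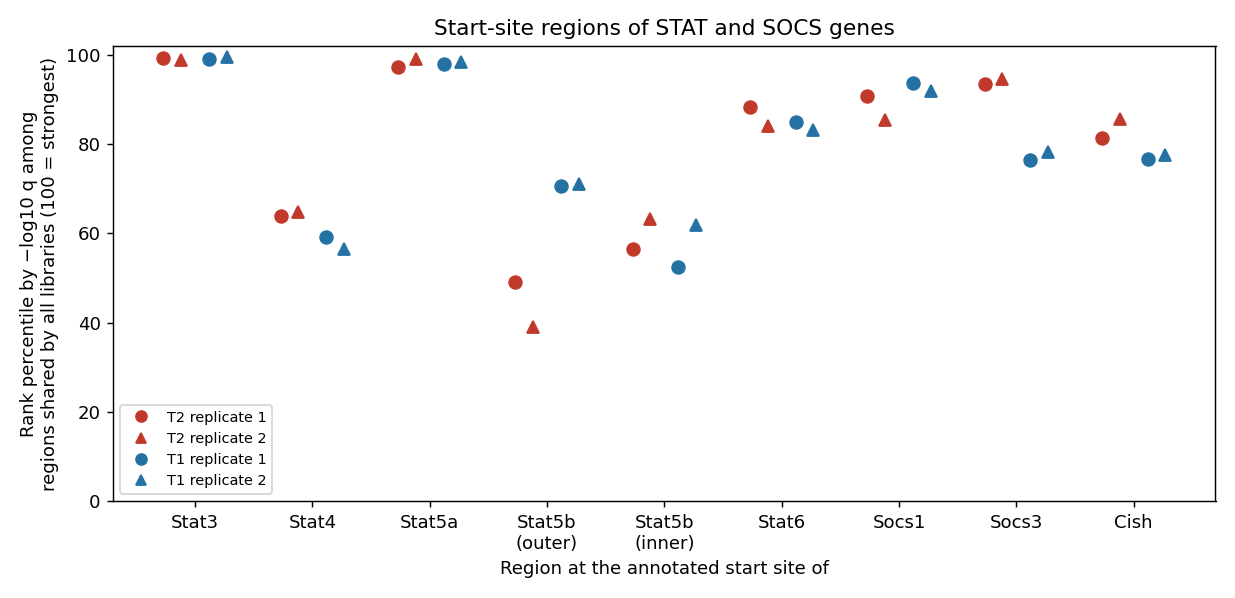
Rank percentile by −log10 q (y axis, 100 = strongest of 44274 shared regions) of the 9 start-site regions in each library, T2 libraries left of T1 libraries at each gene. Stat3 and Stat5a lie above 97 in every library, Socs3 lies at 93.5 and 94.6 in T2 and at 76.5 and 78.1 in T1, and the outer Stat5b region lies lower in T2.

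Among the transcription factors, Stat3 (chromosome 11, 100886806 to 100939594, minus strand), which transmits IL-6 and G-CSF signals, had the strongest start-site region of the 9 by −log10 q. This region, at 100939063 to 100940140, had −log10 q of 268 and 205 in T2 and 262 and 243 in T1. Its percentiles were 99.3 and 98.7 in T2 and 99.1 and 99.6 in T1, so the groups overlapped. By fold over background they were apart with T1 higher, by −5.39 points. The summit, the point of highest signal, lay 28 bases before the start site in T2 replicate 1 and both T1 libraries and 192 bases before it in T2 replicate 2. A T2-only region lay inside the gene, 7.7 kb downstream of the start site (100931551 to 100932044). It had −log10 q of 21.4 and 15.1 in T2, with no deposited peak in either T1 library.

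Stat5a (chromosome 11, 100859351 to 100885169, plus strand) and Stat5b (100780731 to 100859004, minus strand) encode the 2 STAT5 proteins. The Stat5a region over the downstream of its 2 annotated start sites, at 100860082 to 100860903, was close to that of Stat3 in rank by −log10 q. Its percentiles were 97.2 and 99.0 in T2 and 98.0 and 98.4 in T1, and its summit lay 59 or 60 bases before the start site in every library. That summit falls within the 65 bases printed above that resemble Stat5b. Fold over background at this Stat5a region was 15.1 and 17.0 in T2 and 16.3 and 17.6 in T1. At the Stat3 start-site region it was lower in every library, 13.5 and 13.3 in T2 and 13.4 and 14.9 in T1.

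Stat5b had 2 start-site regions, and they differed in what they showed. The outer one, at 100850088 to 100851444, had −log10 q of 38.9 and 25.6 in T2 and 59.8 and 47.5 in T1. Its percentiles were 49.1 and 39.1 in T2, against 70.6 and 71.1 in T1, a difference of −26.7 points, and the groups did not overlap by −log10 q or by fold. As large a difference in the T1 direction was found in 1.92% of all shared regions, a share that describes its size and is no test. The inner one, at 100822351 to 100822894, had percentiles of 56.4 and 63.2 in T2 and 52.5 and 61.9 in T1, which overlapped. Its summit lay 40 to 43 bases before the start site, again within the printed stretch. How the authors treated reads that fit both copies is not given in the sources used here.

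Elsewhere in the Stat5b window, a shared region inside the gene at 100804487 to 100804886, 17.9 kb downstream of the inner start site, was weak and ranked lower in T2. Its percentiles were 6.58 and 7.08 in T2 and 26.3 and 29.6 in T1, without overlap. A T2-only region at 100745029 to 100745416 had −log10 q of 24.5 and 26.0 in T2 and lay inside the body of Kcnh4, a potassium channel gene, not in a STAT gene. Across the Stat5b, Stat5a and Stat3 block, 2 of 20 shared regions were apart with T2 higher and 8 with T1 higher, against 26.3% and 26.2% of all shared regions.

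Stat4 (chromosome 1, 51987106 to 52107189, plus strand), the IL-12-responsive STAT, had the lowest share of regions common to all libraries, 5 of 13 (38.5%). No region was group-only. The start-site region, at 52008308 to 52009147, had −log10 q of 56.5 and 48.2 in T2 and 42.4 and 31.2 in T1. Its percentiles were 63.9 and 64.8 in T2 and 59.1 and 56.5 in T1, a difference of 6.51 points without overlap. In the T2 direction, 23.7% of all shared regions differed by as much. The annotated start site farther upstream had no peak. At the other end of the window, a region downstream of Stat4 at 52113330 to 52114047, within 1000 bp before or 100 bp after the start site of the predicted non-coding gene Gm31812, ranked lower in T2, with percentiles of 79.7 and 72.0, against 87.4 and 92.0 in T1.

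Stat6 (chromosome 10, 127642955 to 127660987, plus strand), which acts downstream of IL-4 and IL-13, had the highest shared fraction, 11 of 12 regions (91.7%). Its start-site region, at 127641883 to 127644122, had percentiles of 88.3 and 84.0 in T2 and 84.9 and 83.2 in T1, which overlapped. Larger differences lay in the flanks. The region at 127674770 to 127675096, between Nab2 and Nemp1, had −log10 q of 17.2 and 13.1 in T2 and 32.1 and 26.6 in T1, and percentiles of 17.3 and 15.4 in T2 and 48.6 and 50.5 in T1. That difference of −33.2 points was matched or exceeded in the T1 direction by 0.881% of shared regions, a share that describes its size only, since the region was named for its difference. The region at 127594417 to 127594851, inside Lrp1, a lipoprotein receptor gene, differed by −25.9 points, with 11.7 and 14.2 in T2 and 39.3 and 38.5 in T1. Ranked by fold, these differences shrank to −7.81 and −3.83 points, without overlap. By contrast, the strongest region of the window, at the start site of Nemp1 (127676594 to 127677551), ranked higher in T2, with 94.0 and 91.7, against 89.0 and 89.7 in T1, by 3.50 points, and by 14.1 points when ranked by fold.

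Among the feedback inhibitors, Socs3 (chromosome 11, 117966079 to 117970336, minus strand), whose product inhibits signalling from gp130 and the G-CSF receptor, had the start-site region with the largest difference in the T2 direction. This region, at 117968899 to 117970277, had −log10 q of 158 and 142 in T2 and 73.5 and 60.7 in T1. The authors' fold over background was 10.2 and 10.9 in T2 and 8.53 and 8.95 in T1. Its percentile was 94.1 ± 0.835 in T2 and 77.3 ± 1.19 in T1 (SD, n = 2 each), a difference of 16.8 points, and the groups did not overlap by −log10 q or by fold. As large a difference in the T2 direction was found in 6.44% of all shared regions. Among the peaks of each list the region stood at rank 2894 and 2371 in T2 and at rank 10428 and 9692 in T1, where rank 1 is the strongest peak. The summit stayed in place, 82 bases after the start site in both T2 libraries and 75 bases after it in both T1 libraries, which is behind the TTCNNNGAA at −154 to −146. The peak holding that motif was 1244 and 1340 bp wide in T2 and 1229 and 1244 bp in T1.

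The flanks of Socs3 differed in both directions. Of its 13 shared regions away from the start site, 6 were apart with T2 higher and 4 with T1 higher, against 26.3% and 26.2% of all shared regions. The region 5.5 kb upstream of the start site, at 117974672 to 117975114, showed the largest difference of the 72. It had −log10 q of 10.7 and 10.8 in T2 and 35.9 and 28.8 in T1, and percentiles of 7.01 and 10.5 in T2 and 53.0 and 53.6 in T1. A difference of this size (−44.6 points) in the T1 direction was found in 0.21% of all shared regions. The region was named for its difference, so this share describes size and is no test. Ranked by fold the difference was −23.9 points. The next region, 6.9 kb upstream at 117976067 to 117976510, differed the other way, with percentiles of 64.2 and 49.2 in T2 and 23.6 and 42.4 in T1. That difference of 23.7 points was 13.7 without T1 replicate 1 and 13.6 by fold. Neighbouring sites of the gene thus ranked in opposite directions between the groups.

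Downstream of Socs3 lay both of its T2-only regions, between genes. The stronger, 11.0 kb from the start site at 117958160 to 117958479, had −log10 q of 18.7 and 27.3 in T2 and no deposited peak in T1. The other, 44.4 kb away at 117924855 to 117925135, was the weakest of the 5, at −log10 q 7.58 and 5.02 in T2, and is lost when every peak must reach 10. Of 12 downstream regions 2 were T2-only and of 9 upstream regions 0, numbers too small to set apart from the 6.88% of all regions. At Socs3, T2-only regions numbered 3 without T2 replicate 1, 4 without T2 replicate 2 and 3 without T1 replicate 2.

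**Figure D4:**
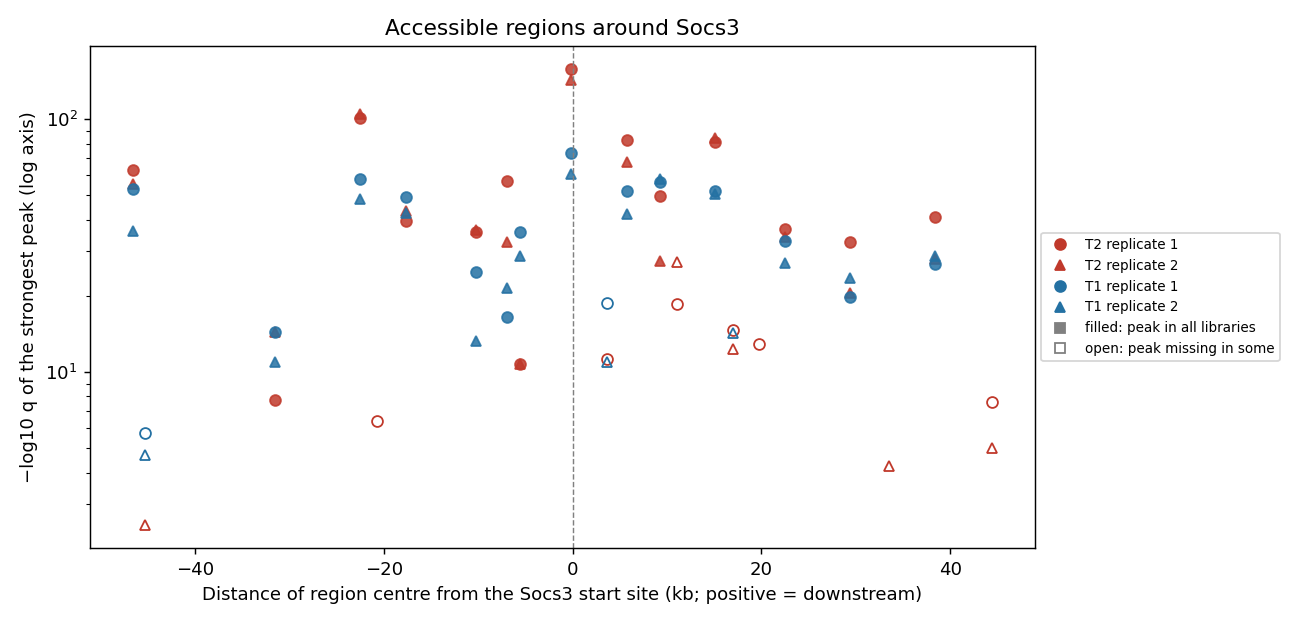
Strength of each region around Socs3 (y axis, −log10 q of the strongest peak, log scale) against the distance of its centre from the start site (x axis, kb, positive downstream), by library; filled symbols are regions with a peak in all 4 libraries and open symbols regions missing in some. The start-site region is higher in both T2 libraries (158 and 142) than in T1 (73.5 and 60.7), and the region 5.5 kb upstream is lower (10.7 and 10.8, against 35.9 and 28.8).

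Socs1 (chromosome 16, 10783808 to 10785536, minus strand), an inhibitor of JAK kinases that limits interferon gamma signalling, differed from Socs3 in direction at its start site. The region, at 10784747 to 10786615, had −log10 q of 139 and 92.7 in T2 and 161 and 112 in T1. Its percentiles were 90.7 and 85.5 in T2 and 93.8 and 92.0 in T1, a difference of −4.76 points without overlap by either measure (−10.8 by fold, −7.25 without T2 replicate 1 and −2.07 without T2 replicate 2). In the T1 direction, 28.4% of all shared regions differed by as much. Of the 6 shared regions of Socs1 away from the start site, 3 were apart with T2 higher and 1 with T1 higher, and 2 were not apart. Over all shared regions the shares apart were 26.3% and 26.2%. A region at 10828097 to 10828571, 42.8 kb upstream, had percentiles of 21.7 and 27.6 in T2 and 5.43 and 4.62 in T1. Another, inside Clec16a at 10737619 to 10738228 and 47.6 kb downstream, had 57.3 and 53.7 in T2 and 39.6 and 24.7 in T1, a difference of 23.4 points that was 14.7 without T1 replicate 2 and 9.82 by fold. The T2-only region, 16.6 kb downstream at 10768637 to 10769189, had −log10 q of 10.8 and 10.3 in T2.

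Cish (chromosome 9, 107296659 to 107302784, plus strand), a classic STAT5 target whose product damps STAT5 signalling, was accessible at its start site in every library. The region, at 107295616 to 107297238, had −log10 q of 96.1 and 93.5 in T2 and 74.1 and 59.6 in T1. Percentiles by −log10 q were 81.3 and 85.7 in T2 and 76.7 and 77.6 in T1, a difference of 6.32 points without overlap (3.98 without T2 replicate 2). In the T2 direction, 24.3% of all shared regions differed by as much. By fold over background the groups overlapped, with values of 10.9 and 13.0 in T2 and 12.5 and 12.3 in T1, and the direction turned to −4.61 points. The strongest peak there was 1530 and 1426 bp wide in T2 and 1032 and 958 bp in T1. Its summit lay 56 and 58 bases before the start site in T2, 22 bases before it in T1 replicate 1 and 133 bases after it in T1 replicate 2, where 2 peaks were called.

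Away from the Cish start site, 3 of 10 shared regions were apart with T2 higher and 3 with T1 higher, against 26.3% and 26.2% of all shared regions. The largest differences lay in or near other genes. A region at 107340272 to 107340915, within Hemk1 and near the start site of 6430571L13Rik, had percentiles of 71.4 and 83.1 in T2 and 50.1 and 57.8 in T1. Another at 107263792 to 107264357, within Mapkapk3, a kinase gene, had 31.7 and 18.1 in T2 and 45.9 and 49.8 in T1. The strongest region of the window, at the Mapkapk3 start site (107288802 to 107290229), had 90.8 and 91.6 in T2 and 92.2 and 94.0 in T1, which were apart by a difference of −1.91 points (−0.89 without T1 replicate 2 and −9.65 by fold).

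Socs2 (chromosome 10, 95383903 to 95417321), whose product restrains growth hormone signalling, had the weakest regions of the 9 genes. Its 9 regions had a strongest mean −log10 q of 35.7, against 109 to 245 at the other 8 genes. The strongest, at 95416581 to 95418134 over 1 end of the gene and near a start site of the non-coding gene 5730420D15Rik, had percentiles of 50.7 and 53.3 in T2 and 47.1 and 61.5 in T1, which overlapped. The only T1-only region of the 116 lay beyond the gene (95367639 to 95368033) and had −log10 q values of 7.97 and 6.86 in T1. Without T1 replicate 1, T2-only minus T1-only regions at Socs2 turned to 1, against −1 with all libraries. Of the 4 shared regions, 0 were apart with T2 higher and 2 with T1 higher, against 26.3% and 26.2% of all shared regions. The larger difference, at 95398425 to 95398867, had percentiles of 8.70 and 12.7 in T2 and 16.0 and 46.5 in T1, a gap between T1 replicates larger than the difference between groups of −20.6 points, which was −36.5 without T1 replicate 1 and −7.15 without T1 replicate 2.

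By position, the 9 start-site regions held 0 group-only regions, the 28 other regions inside member genes held 1 T2-only, the 39 inside other genes held 1 T2-only, and the 40 between genes held 3 T2-only and 1 T1-only. These counts are too small to set apart from the 6.88% T2-only and 2.33% T1-only among all regions. T2-only regions were 281 to 553 bp wide, where shared regions had a median of 677 bp, and their mean −log10 q lay between 6.30 and 25.3, where shared regions had a median of 43.1. The region inside Kcnh4 was the strongest of the T2-only regions and the one far downstream of Socs3 the weakest.

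Other genes of the pathway, 47 in 6 lists, held 579 regions, of which 378 (65.3%) were shared, 29 (5.01%) T2-only and 19 (3.28%) T1-only, against 56.8%, 6.88% and 2.33% of all regions. More T2-only than T1-only regions were found at 18 genes and the opposite at 10. These counts come from the full lists, which are longer in T2, and equal list length was not tested for these genes. Among the JAK kinases, 2 T2-only and 1 T1-only regions were found among 13 at Jak2, Jak3 had 1 and 1 among 22 and Jak1 had 1 and 0 among 23. Of the other SOCS genes, 0 T2-only and 2 T1-only regions were found among 10 at Socs5, Socs6 had 0 and 1 among 4 and Socs7 had 1 and 0 among 16.

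Among regulators of STATs, Ptpn1, a phosphatase that acts on JAK2 and TYK2, had 21 regions, 3 of them T2-only and 0 T1-only. Pias4 had 2 and 0 among 18, Cbl, a ubiquitin ligase, had 0 and 2 among 20, and Sh2b3, the adaptor LNK, had 1 and 0 among 10. Among JAK-coupled receptors, Csf2rb2, the mouse IL-3 receptor beta chain, and Il6ra had 2 and 0 each, among 14 and 21 regions. Csf3r, the G-CSF receptor, had 0 and 2 among 8, and Ifngr2 had 0 and 2 among 13. Among STAT targets, Ccnd2 had 2 and 0 among 12, Osm had 1 and 0 among 18, and Myc and Bcl6 had 0 and 1 each, among 8 and 9. Over the pathway's shared regions, 96 (25.4%) were apart with T2 higher and 120 (31.7%) with T1 higher, against 26.3% and 26.2% of all shared regions, and the median difference was −0.40 points.

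In the number of regions with a peak in each library, the pathway gene most like Socs3 was Jak3, with 20 and 19 in T2 and 18 and 17 in T1, where Socs3 had 20 and 19 in T2 and 16 and 17 in T1. Likeness was the sum of absolute differences over the 4 libraries, 2 here, followed by 4 each for Il6ra and Ptpn6. Tyk2 was most like Stat6, with a sum of 0, and Il10ra most like Cish, with 1. These counts follow gene length and list length as well as accessibility.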

How the data were processed

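ATAC-seq peaks of 4 MPP3 libraries (2 T2, 2 T1, grouped by sample title) were used. The submitters' processing notes name Bowtie2, SAMtools, MACS2 and build mm10; no version, setting, transposase shift or read filter is given there. Each deposited list has its own prefix in the peak names, which points to calling by the authors in each library separately. The deposited fold is a ratio over local background at the summit; the deposited −log10 p and −log10 q measure significance against that background, and the deposited score is about 10 times the −log10 q. All are within-library values and not counts, and served here for ranking and filtering alone.

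Peaks of the assembled chromosomes (1 to 19, X, Y) that shared 1 bp were joined. Gene and start-site positions came from RefSeq tables on GRCm38.p6. The members and gene lists were chosen with earlier results of these data known. Named were all members, their start-site, group-only and strongest shared regions, up to 2 shared regions per locus with the largest difference among those apart, and up to 4 genes per pathway list; not every item this rule names is reported here. Joining and ranking were tested on simulated peaks. Python 3.11.15, pandas 2.3.3, numpy 2.4.6 and matplotlib 3.10.9 were used.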

Additional observations from a re-analysis of the deposited data

How the results depend on the processing

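No paired analysis was possible because the values come from no test and the replicate numbers tie libraries to no shared animal or day. T2-only regions numbered 5. They became 11 of 92 when every peak had to reach −log10 q 10 (8.08% of all regions were then T2-only). At equal list length they numbered 4 of 105 (3.81%), against 4.33% of all regions. With 100 kb either side they numbered 11 of 196 (5.61%) and with 10 kb 2 of 55 (3.64%). In gene bodies only they numbered 1 of 37 (2.70%). The share over all regions was 6.88% for each of these windows. T1-only regions numbered 1; they became 2 at equal list length, 2 with 100 kb, 0 with 10 kb and 0 in gene bodies. Shared regions numbered 72; they became 119 with 100 kb, 37 with 10 kb and 23 in gene bodies, since wider windows hold more regions. Without 1 library, where its partner alone decides, T2-only regions numbered 17 without T1 replicate 1, 14 without T2 replicate 2, 9 without T2 replicate 1 and 8 without T1 replicate 2, and T1-only regions 2 without T1 replicate 1 and 4 without any other library. The median rank difference of −1.61 was −3.22 by fold, −0.98 at equal list length, −2.25 in gene bodies and between −2.05 and −0.0003 without 1 library. Ranked over whole lists it was 2.15, against 3.15 for all shared regions, which follows the longer T2 lists. At Socs2 the excess of T1-only regions reversed without T1 replicate 1 (T2-only minus T1-only 1, against −1; between −2 and 1 without 1 library), and the rank difference at the Cish start site reversed by fold (−4.61); the cause was not tested. At Socs3 T2-only regions numbered 2, 1 when peaks had to reach −log10 q 10, 1 at equal list length and between 2 and 4 without 1 library. Over all regions the T2-only share was 8.08% at −log10 q 10, 4.33% at equal list length and between 9.67% and 15.7% without 1 library.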
